A study of Canis lupus familiaris with 81 samples.

Results

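Spleen-high probes are the probes whose level was higher in dog spleen than in dog kidney and liver, and their levels were followed across 24 canine osteosarcomas. The levels are log2 CPM, counts scaled to a common library size, after TMM scaling over 80 tissue regions, with a prior count of 2. A probe was taken when each of the 4 spleen regions lay above every kidney and liver region and the spleen mean was at least 1 log2 unit above both other means. Of 2010 probes, 99 met these levels, 2 of these were set aside and are not analysed here, and the remaining 97 are the members. Their high level in spleen is therefore how they were chosen and not a finding. The files give probe identifiers without gene names, and 0 of the 2010 identifiers matched the dog gene table at hand. Members are named by identifier for this reason, with no gene role and no probe sequence.

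The spleen filters the blood, and its tissue is rich in lymphocytes, macrophages and blood vessels. Osteosarcoma is a malignant tumour of bone-forming cells, and it can also hold immune cells, vessels and the matrix the tumour lays down. A probe that is high in spleen can therefore be read in a tumour from more than one kind of cell. Without gene names no defining marker of the tumour, of the control tissues or of any immune cell could be looked up, so the tissue labels were not checked against markers and the share of any cell type was not tested.

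The study profiled appendicular osteosarcoma, a tumour of the limb bones, from dogs of a clinical trial consortium with the GeoMx Digital Spatial Profiler and the canine cancer atlas panel. In this assay tagged probes are hybridised to a tissue section, the tags of a chosen region are released, and the tags are counted by sequencing. The tumours stood on 2 tissue microarrays, slides that hold small pieces of many specimens, and gave 68 regions in all. Each array carried 2 regions of 10 tumours and 1 region of the other 14. Spleen, kidney and liver gave 4 regions each, 2 on each array. No treatment, breed or age is given in the labels for any group, and which animals the control tissues came from is not given either, so the 4 regions of a tissue may come from 1 animal. The labels do not state which tumours belong to the groups of long and short disease-free interval named in the study design, and that comparison was not made.

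Total counts per region ranged from 17711 to 1069118 in the tumours, with a median of 211967. They ranged from 118688 to 306639 in spleen, from 156004 to 396058 in kidney and from 92126 to 205809 in liver. Within a tumour region, the median count over the 97 members lay between 5 in the poorest and 365 in the richest region. Only 18 of 6596 member values in tumour regions were 0 (0.273%). The lowest 25% of all probes by level, with any members among them left out, served as a floor of 499 probes. This floor averaged 6.28 in tumours, 6.69 in spleen, 6.74 in kidney and 7.01 in liver, so a level near these values is close to the least that the assay read here.

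As a whole the members stood in tumours between their level in spleen and their level in kidney and liver. The mean level over the 97 members was 8.44 ± 0.30 in the tumours (SD, n = 24 tumours). Spleen had 9.46 ± 0.08, kidney had 7.33 ± 0.02 and liver had 7.68 ± 0.07 (SD over 4 regions). Tumour 214 had the lowest mean, 7.88, and tumour 706 the highest, 9.12, which is 2.37-fold apart, and the median tumour had 8.36. The 4 spleen regions lay between 9.36 and 9.54, above all 24 tumours. Each region holds many cells, so fewer cells of a type and less RNA per cell cannot be told apart in any of these values. The members took 12.6 ± 2.66% of the counts, those of 7 probes not analysed here left out, in the tumours (SD, n = 24), against 21.9 ± 0.63% in spleen, 3.16 ± 0.12% in kidney and 4.85 ± 0.09% in liver. That share was lowest in tumour 214 at 9.07% and highest in tumour 404 at 19.2%, below every spleen region and above every kidney and liver region in both. A share gives most weight to the members with most counts. RTS0113771, the member with the highest counts, had its maximum level, 16.20, in tumour 404, and its part in the share there was not tested.

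The mean hid very different members. A member was called lost where its mean over tumours was at or below the higher of its kidney and liver means, raised where it was above its spleen mean, and kept where it lay between. By these levels 34 members were lost, 45 were kept and 18 were raised. The tumour mean minus the spleen mean ran from -5.60 to 1.97 log2 units, with a median of -1.09 over the members and -0.07 over all 2010 probes. In 31 members all 24 tumours were below every spleen region, and in 3 members all 24 tumours were above every spleen region. In 16 members every tumour was above every kidney and liver region. The same counts over all 2010 probes were not made. Members were chosen for high spleen and lower kidney and liver levels, which favours the 31 and the 16.

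The boundaries of these classes moved with the scaling of the libraries. With upper quartile scaling there were 50 lost, 33 kept and 14 raised members, and with library size alone there were 63, 27 and 7. These counts are for the same 97 probes, and the choice of members moved with the scaling as well. Applied to upper quartile levels the rule gave 71 members, all among the 97. Applied to levels from library size alone it gave 141, which held all 97. The median of all probes, tumours minus spleen, moved too, to -0.41 and to -1.12. Relative to that shift the median member stood at -1.02 in the chosen scaling, at -1.05 with upper quartile scaling and at -1.08 with library size alone. All 34 lost members stayed lost under both, and the 14 and the 7 raised members were all among the 18. The set mean of all 24 tumours was below every spleen region under each of the 3 scalings. It was above every kidney and liver region in all 24 tumours with the chosen scaling. Upper quartile scaling left 15 such tumours and library size alone left 12.

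**Figure D1:**
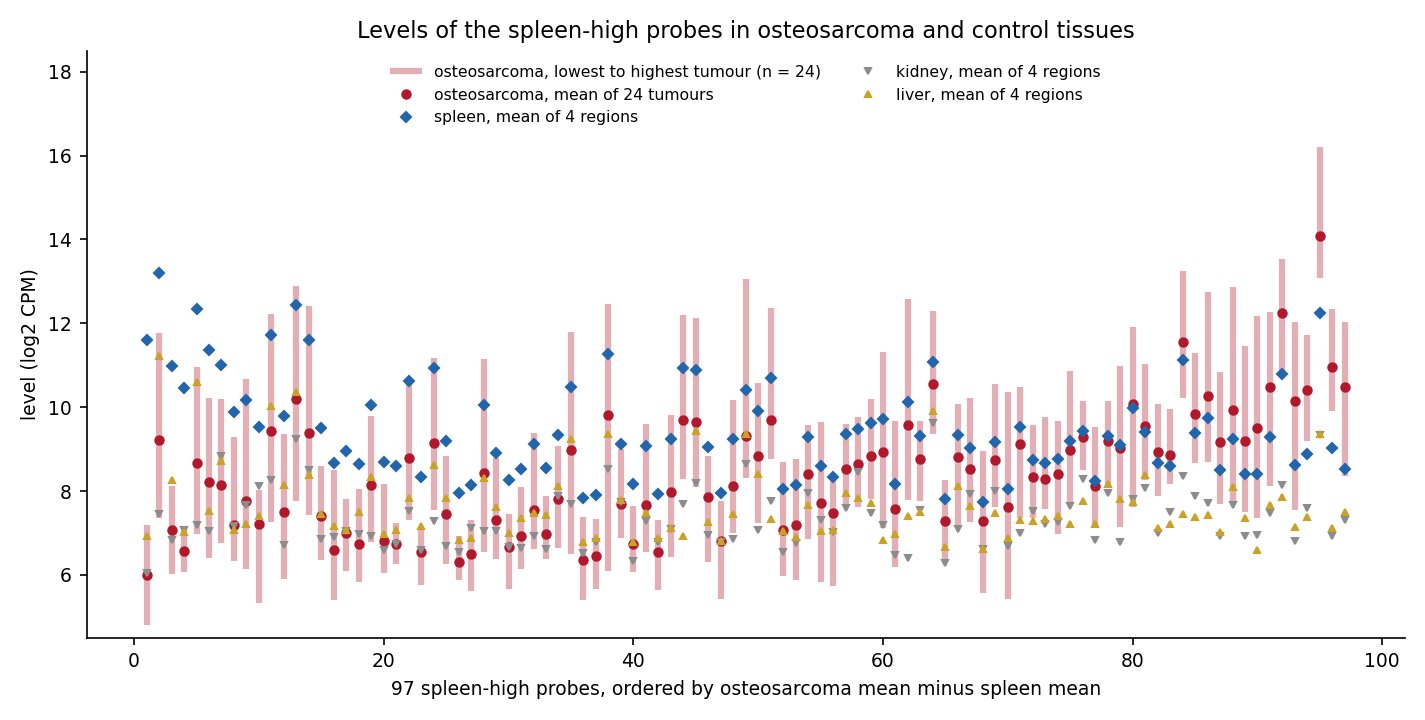
Level in log2 CPM (vertical axis) of the 97 spleen-high probes (horizontal axis), ordered by the osteosarcoma mean minus the spleen mean. Red points are means of 24 tumours with a bar from the lowest to the highest tumour, and blue, grey and yellow symbols are means of 4 regions of spleen, kidney and liver. The difference runs from -5.60 at the left to 1.97 at the right, and the blue symbols lie above the red points for all but the 18 raised probes.

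The strongest loss was in RTS0113819, one of the probes given as a marker of the set. Over the 24 tumours its level had a minimum of 4.81, a median of 5.96 and a maximum of 7.20. Its 4 spleen regions read 12.08, 11.62, 11.42 and 11.26, its kidney regions 6.02, 6.24, 6.02 and 5.92, and its liver regions 7.04, 7.33, 6.76 and 6.56. Every tumour was thus more than 4 log2 units below the lowest spleen region, and the tumours overlapped the kidney and liver regions. Its mean was 6.00 ± 0.63 in tumours (SD, n = 24) and 11.60 ± 0.35 in spleen (SD, n = 4), a level 48.4-fold higher in spleen. In tumours it was at the floor, 0.28 below the mean of the floor probes, and its median count over the tumour regions was 9. The fold therefore rests on few counts on the tumour side.

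The other probe given as a marker, RTS0112353, was also at the floor in tumours. Its level over the tumours had a minimum of 6.08, a median of 6.56 and a maximum of 7.12, whereas the spleen regions read 10.35, 10.36, 10.55 and 10.60, and its median count over the tumour regions was 13. Its kidney regions read 6.70, 6.81, 7.13 and 7.64 and its liver regions 6.81, 7.41, 6.83 and 7.05. The tumours did not overlap spleen and did overlap kidney and liver. Both markers were lost, in 23 of 24 tumours for RTS0113819 and in 21 of 24 for RTS0112353.

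RTS0112046 was lost in a different way. Its tumour levels had a minimum of 7.36 in tumour 809, a median of 9.11 and a maximum of 11.77 in tumour 706, a 21.2-fold range. Its spleen regions read 13.02, 13.27, 13.21 and 13.31, above all tumours, its kidney regions 7.30, 7.37, 7.65 and 7.44, and its liver regions 11.07, 11.51, 10.95 and 11.39. The tumours spanned from the kidney level to just above the liver level. It counted as lost because liver was high, and it stood 2.93 above the floor in tumours. Of the 34 lost members 13 were within 0.5 log2 units of the floor in tumours, and no kept or raised member was. When each tumour was taken singly, 3 members, RTS0112100, RTS0113644 and RTS0112149, were lost in all 24 tumours.

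Among the 18 raised members RTS0112518 and RTS0112902 had the highest tumour mean relative to spleen. RTS0112518 had tumour levels with a minimum of 8.35 in tumour 214, a median of 10.58 and a maximum of 12.04 in tumour 701. Its spleen regions read 8.49, 8.70, 8.38 and 8.53, its kidney regions 7.36, 7.26, 7.33 and 7.27, and its liver regions 7.37, 7.48, 7.28 and 7.84. In 22 tumours it was above every spleen region, in 1 below every spleen region, and the groups overlapped in the rest. RTS0112902 separated fully, with tumour levels from 9.92 over a median of 10.84 to 12.34. Its spleen regions read 9.00, 9.03, 9.03 and 9.07, its kidney regions 6.97, 7.15, 6.92 and 6.68, and its liver regions 6.93, 7.14, 6.96 and 7.41. No tumour fell within the range of a control tissue.

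RTS0112902 was one of 4 members raised in all 24 tumours, with RTS0113771, RTS0113468 and RTS0111939. RTS0113771 gave the highest counts of any member, with a median of 2904 over the tumour regions. Its tumour levels had a minimum of 13.08, a median of 14.00 and a maximum of 16.20 in tumour 404, against 12.02, 12.28, 12.26 and 12.46 in the spleen regions. Every tumour was above every spleen region for this probe. RTS0113468 averaged 12.23 ± 0.89 in tumours and 10.80 ± 0.14 in spleen, and RTS0111939 averaged 10.41 ± 0.65 in tumours and 8.88 ± 0.14 in spleen (SD, n = 24 tumours and 4 regions). RTS0111939 was above every spleen region in all 24 tumours and RTS0113468 in 23 of them.

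The kept members could still range far from spleen in single tumours. RTS0112185, the kept member whose tumour mean was nearest to spleen, had means of 9.03 ± 1.22 in tumours (SD, n = 24) and 9.10 ± 0.06 in spleen (SD, n = 4). Yet its tumour levels had a minimum of 7.13 in tumour 809, a median of 8.94 and a maximum of 10.98 in tumour 1002, against 9.14, 9.14, 9.01 and 9.09 in the spleen regions. In 11 tumours it was above every spleen region, in 12 below every spleen region, and in 4 it was lost. RTS0112915, the next nearest, averaged 9.18 ± 0.59 in tumours and 9.32 ± 0.15 in spleen. Its tumour levels ran from 8.07 over a median of 9.25 to 10.14, on both sides of the spleen regions at 9.18, 9.21, 9.41 and 9.47. In both probes the tumour mean near spleen was an average over tumours on either side of it.

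**Figure D2:**
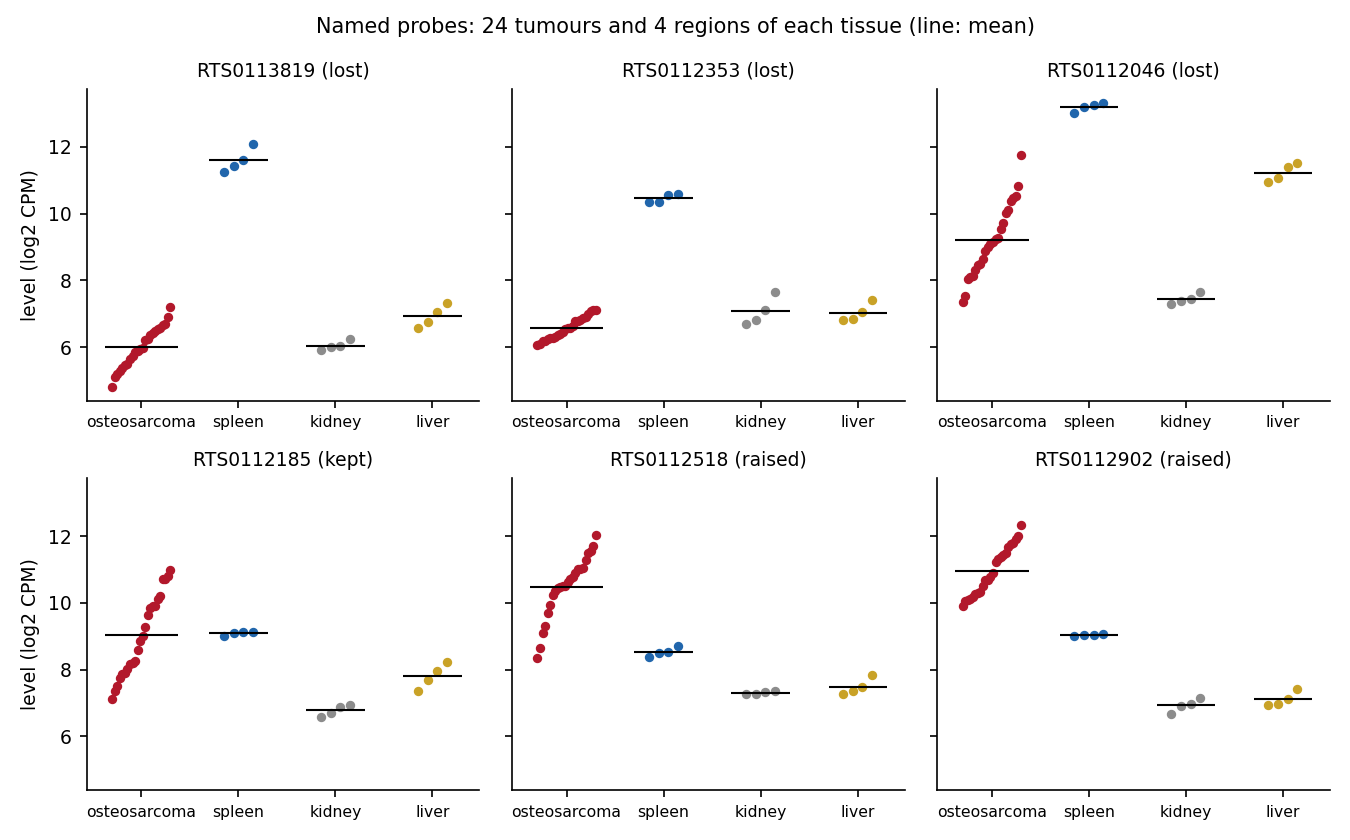
Level in log2 CPM (vertical axis) of 6 named probes in 24 tumours (red) and in 4 regions each of spleen (blue), kidney (grey) and liver (yellow), with lines at the means. RTS0113819 and RTS0112353 sit near kidney and liver in all tumours, RTS0112185 spans from 7.13 to 10.98 around its spleen regions, and RTS0112902 is above every control region in all 24 tumours.

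The state of a member differed from tumour to tumour. Taking each tumour alone, 39 of the 97 members were lost in at least 1 tumour, kept in another and raised in yet another. The number of lost members had a minimum of 19 in tumour 706, a median of 35 and a maximum of 50 in tumour 2202. The number kept ran from 25 in tumour 1701 to 62 in tumour 901, with a median of 39. The number raised ran from 11 in tumour 1403 to 36 in tumour 706, with a median of 24. Tumour 706 thus had both the fewest lost and the most raised members, while tumour 1403, with the lowest total count of any tumour at 73371, had the fewest raised. The part of depth in the counts per tumour was not tested. Leaving out the 17 tumour regions of lowest total removes tumours 1403 and 204 altogether, and over the 22 tumours left the class counts from tumour means were 37 lost, 42 kept and 18 raised.

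**Figure D3:**
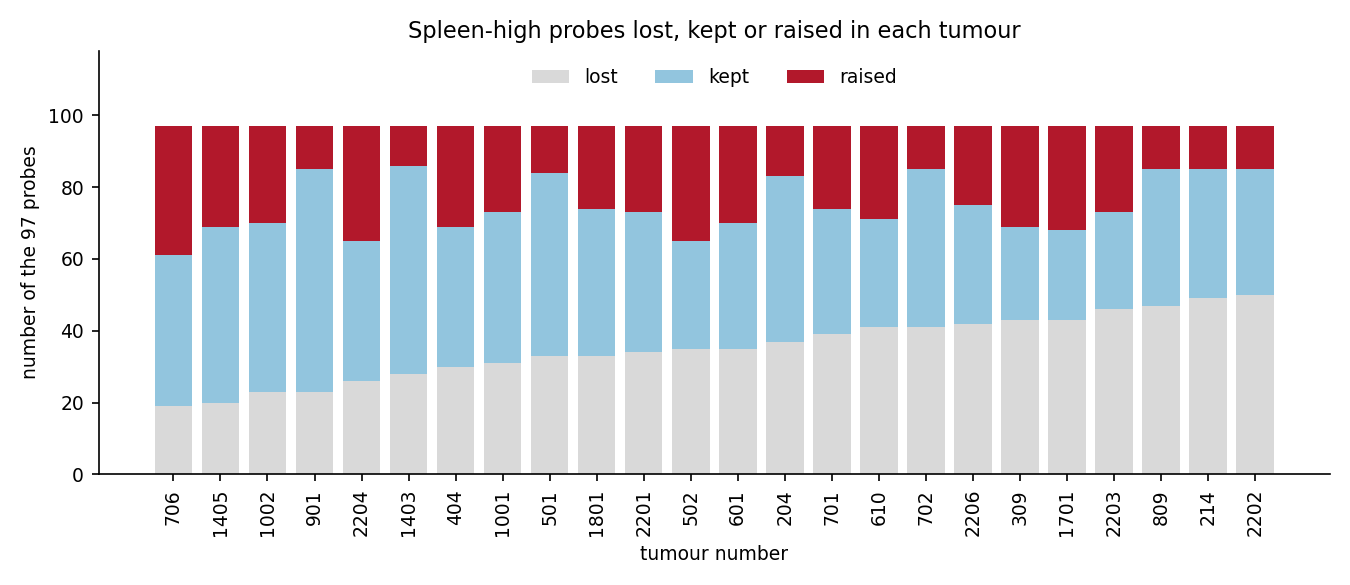
Number of the 97 spleen-high probes (vertical axis) that were lost (grey), kept (light blue) or raised (red) in each of the 24 tumours (horizontal axis), ordered by the number lost. Lost members run from 19 in tumour 706 to 50 in tumour 2202.

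The counts were also tested with edgeR's quasi-likelihood test, with Benjamini-Hochberg adjustment over all 2010 probes and a threshold of 0.05. All 97 members passed the filter on low counts, as all 2010 probes did. Counts were added up over the regions of each tumour and over the 4 regions of each tissue, so the spread came from the tumours and a tissue, with a single sum, was given the same spread. The same control regions chose the members, so the counts against them are a description. Against spleen 24 of the 97 members were lower in tumours, where 2.39% of all probes were, with log2 fold changes from -5.62 to -1.34. Of these 24, 22 were lost members and 2, RTS0113761 and RTS0111893, were kept. The log2 fold change was -5.62 ± 0.42 for RTS0113819 (SE, edgeR adjusted p = 2.57e-11) and -3.91 ± 0.23 for RTS0112353 (SE, edgeR adjusted p = 9.36e-14). RTS0112046 had -3.58 ± 0.75 (SE, edgeR adjusted p = 0.00342), and all 3 were lower in 24 of 24 tumours.

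No member was higher than spleen in this test, and 0% of all probes were. At an unadjusted p under 0.05, 1 member and 64 of all 2010 probes were higher. DESeq2 called 0 members and 32 of all probes higher, and limma voom on single regions called 4 members and 78 of all probes. RTS0112902 stood at 2.23 ± 1.06 on the log2 scale over spleen (SE, edgeR adjusted p = 0.452), with a higher level in 24 of 24 tumours. RTS0112518 had 2.24 ± 1.11 (SE, edgeR adjusted p = 0.464), higher in 23 of 24 tumours. A log2 fold change in this test compares mean counts, so it can differ in sign from the difference of mean levels, as in RTS0112185 with 0.47 ± 1.19 (SE, edgeR adjusted p = 0.848) against a difference of -0.06.

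Against kidney 1 member, RTS0112902, was higher in tumours at 4.31 ± 1.25 (SE, edgeR adjusted p = 0.0346, higher in 24 of 24 tumours), and 0.199% of all probes were higher. No member was lower than kidney, where 4.93% of all probes were. None was at an unadjusted p under 0.05 in edgeR, where 177 of all probes were. DESeq2 called 0 members and 97 of all probes lower, and limma voom 0 members and 106 of all probes. Members were chosen for kidney and liver levels below spleen, so the choice itself makes a call of lower than kidney or liver less likely. Against liver 3 members were higher, RTS0112902 at 4.23 ± 1.25 (SE, edgeR adjusted p = 0.0426), RTS0113468 at 4.69 ± 1.41 (SE, edgeR adjusted p = 0.0478) and RTS0111939 at 3.22 ± 0.97 (SE, edgeR adjusted p = 0.0485), each in 24 of 24 tumours, and 0.597% of all probes were higher. No member was lower than liver, where 4.43% of all probes were. At an unadjusted p under 0.05 in edgeR 2 members and 336 of all probes were lower. DESeq2 called 0 members and 112 of all probes lower, and limma voom 1 member and 90 of all probes. The number of members higher than liver depended on single tumours, while that for kidney did not fall below 1 when a tumour was left out. Both numbers depended on the tool. Leaving out 1 tumour gave 1 to 2 members higher than kidney and 1 to 5 higher than liver, with 5 without tumour 214 and 1 without tumour 701, 1001, 1002, 1405 or 2201. Against kidney DESeq2 gave 15 members and 72 of all probes higher, and limma voom gave 30 members and 133 of all probes. Against liver DESeq2 gave 18 members and 132 of all probes higher, and limma voom gave 28 members and 261 of all probes. Library size alone gave 0 members for both, where 5 of all probes were higher for each, and array 1 alone gave 0 members for both. How many of all probes were higher with 1 tumour left out or on array 1 alone was not counted. Whether those moves are particular to the members was therefore not tested.

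The tumours were not used to choose the members, so differences among tumours could be tested. An F test in edgeR over the 68 tumour regions, with array as a covariate, asked whether tumours differ by more than regions of a tumour do. It called 96 of the 97 members, where 86.5% of all 2010 probes were called. The members had a median tumour level of 8.46 against 7.13 over all probes, and a higher level gives a test more counts. What part the level has in the higher share of calls was not tested. The 68 regions entered as separate samples, while regions of a tumour on the 2 arrays may repeat the same piece of tissue. For the 14 tumours with 1 region on each array, the spread within the tumour may then be that of a repeat reading. The exception was RTS0113407 (edgeR adjusted p = 0.0854), a lost member within 0.45 of the floor. On 1 array alone the spread comes from separate regions of 10 tumours, and the calls fell. Array 2 gave 56 of the 97 members (57.7%) and 631 of the 1957 probes tested there (32.2%). Array 1 gave 58 members (59.8%) and 728 of all 2010 probes (36.2%).

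Members differed widely in how much they varied. The range over the 24 tumours had a median of 2.89 log2 units over the members and 1.99 over all probes. The widest range was that of RTS0112358, a kept member, with tumour levels from 6.09 in tumour 309 over a median of 9.90 to 12.47 in tumour 706, an 83.3-fold range. Its spleen regions read 11.11, 11.30, 11.23 and 11.39, its kidney regions 8.84, 8.38, 8.55 and 8.38, and its liver regions 9.12, 9.76, 8.98 and 9.54. The lowest tumours were thus below every control tissue and the highest above spleen. RTS0112651 followed with 6.50 in tumour 2202, a median of 9.04 and 11.80 in tumour 706, a 39.6-fold range, against 10.38, 10.35, 10.52 and 10.64 in the spleen regions. At the other end RTS0113407 ran only from 6.25 to 7.24 over the tumours, against 8.49, 8.60, 8.63 and 8.69 in spleen, and RTS0113622 from 5.89 to 6.93, against 8.00, 7.74, 7.93 and 8.16 in spleen. Both were lost members close to the floor, with median counts over the tumour regions of 14.5 and 10.5, and with all tumours below all spleen regions.

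The level of a member in a tumour was mostly the same on both arrays. The Pearson correlation between array 2 and array 1 over the 24 tumours had a median of 0.878 over the members and 0.541 over all probes. It was 0.951 for raised, 0.893 for kept and 0.601 for lost members. The points are tumours and the arrays share them, perhaps down to the same piece of tissue, so these values describe repeatability. The 2 markers, lost members near the floor, repeated less well. RTS0113819 had r = 0.160 (Spearman rho = 0.47) and RTS0112353 had r = 0.103 (rho = 0.26). RTS0112358 had r = 0.976 (rho = 0.92) and RTS0112518 had r = 0.950 (rho = 0.99).

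With the tumour as a block, 11 members were higher on array 2 than on array 1 (7.66% of all probes were) and 2 were lower (1.09% of all probes were), in edgeR with an adjusted p under 0.05. The log2 fold changes of the 11 ran from 0.14 to 0.28, and those of the 2, RTS0112047 and RTS0112880, were -0.29 ± 0.07 (SE, edgeR adjusted p = 0.00596) and -0.33 ± 0.10 (SE, edgeR adjusted p = 0.0345). Of the 11, 8 were raised members and 3 were kept, and both lower ones were lost members. RTS0111939 was higher by 0.21 ± 0.04 (SE, edgeR adjusted p = 1.71e-04), in 19 of 24 tumours. These steps are small beside the 2.53 log2 range of this probe over the tumours. Without the block for tumour 0 members and 1 of all 2008 probes tested were called, and in the 10 tumours with 2 regions on each array 4 members and 51 of all 2010 probes were.

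The members were then grouped by how they varied together. Average linkage on 1 minus the Pearson correlation over 24 tumours, on the levels of array 1, was stopped at a mean correlation of 0.5, and groups of at least 5 members were called blocks. This gave 5 blocks with 46 members, and 51 members were in none. Correlations of the same members on array 2, which was not used to form the blocks, are given here as a description. The arrays share the tumours, and the block levels correlated between arrays at r = 0.93 to 0.97 over the 24 tumours. Array 2 is thus no independent test of blocks chosen on array 1. Over all pairs of members the median correlation on array 2 was 0.108, against 0.0115 over all pairs of probes, and 9.71% of member pairs exceeded 0.5, against 4.72% of all pairs. The members also had a higher median tumour level, 8.46 against 7.13 over all probes. Their median correlation between arrays was higher too, 0.878 against 0.541. What part level and repeatability have in the higher pair correlations was not tested. The mean correlation over all pairs of members on array 2 was 0.114, and it moved to 0.418 with library size alone, where 72 members fell into 3 blocks.

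**Figure D4:**
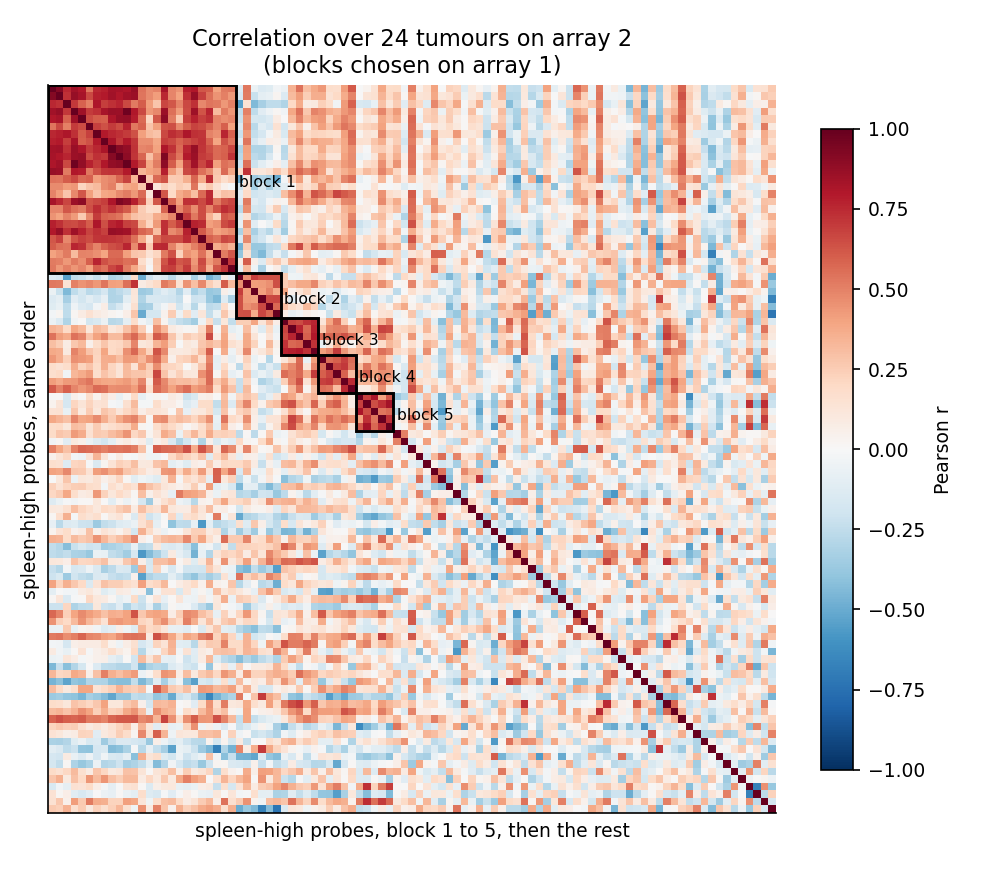
Pearson correlation over 24 tumours on array 2 between the 97 spleen-high probes (both axes, same order: block 1 to block 5, then the 51 in no block), from -1 (blue) to 1 (red). The boxes mark blocks chosen on array 1 over the same tumours, and the mean correlation inside them on array 2 is between 0.546 and 0.704.

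Block 1 was the largest, with 25 members, of which 15 were lost and 10 kept. Its mean correlation was 0.588 on array 2 and 0.691 on array 1, while its members correlated with all other members at a mean of 0.0986 on array 2. Its level, the mean over its members, had a minimum of 7.21 in tumour 309, a median of 8.18 and a maximum of 10.01 in tumour 706, a 6.94-fold range. Spleen averaged 9.92 ± 0.11, kidney 7.32 ± 0.03 and liver 8.38 ± 0.11 (SD over 4 regions). Tumour 706 reached the range of the spleen regions, 9.77 to 10.02, and tumours at the low end reached that of the kidney regions, 7.29 to 7.36. The members most typical of it were RTS0112366 and RTS0112651. RTS0112366 had tumour levels from 8.10 in tumour 1701 over a median of 9.62 to 12.13 in tumour 706, and spleen regions at 10.70, 11.02, 10.82 and 11.01. RTS0112046 and RTS0112358 were members of block 1 too.

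Most members of block 1 stayed together under other settings. All 25 members stayed in 1 block with upper quartile scaling and when the stop was moved to 0.4. With Spearman correlation 24 did, with the stop at 0.6 23 did, and 20 did when array 2 was used to form the blocks. With library size alone 24 stayed together, but within a larger block of 35. Without tumour 706, where block 1 was highest, its mean correlation on array 2 was 0.499. Its level correlated over the 24 tumours with the log2 total count at r = 0.03 (Spearman rho = 0.02) and with the floor at r = -0.09 (rho = -0.02).

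Regions of a tumour differed in block 1 as well. Among the 20 pairs of regions of 1 tumour on 1 array, its level differed by a median of 0.25 log2 units. The largest difference was 2.66, in tumour 1001 on array 1, and it appeared on array 2 as well with 2.56. On array 2 the regions of tumour 1001 read 7.52 and 10.08, with total counts of 500268 and 83347, and on array 1 they read 7.53 and 10.19, with total counts of 262047 and 69005. One region of this tumour was thus near the kidney level of block 1 and the other above the highest spleen region, on each array. The region with the higher level had the lower total both times, and whether depth plays a part was not tested. The mean over all 97 members differed less between these regions, by 0.75 on array 2 and 0.76 on array 1. Tumour 1002 had the next largest differences on array 2, 1.29, and tumour 404 on array 1, 1.19.

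**Figure D5:**
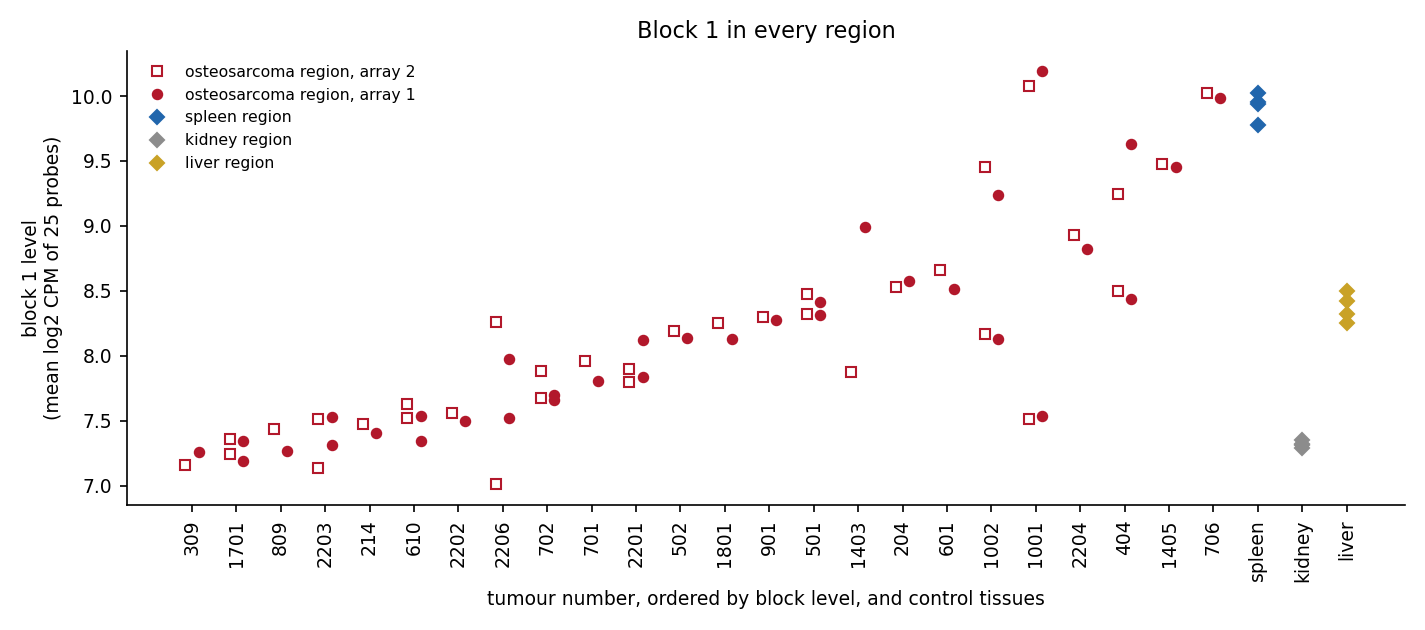
Level of block 1 (vertical axis, mean log2 CPM of 25 probes) in every tumour region, on array 2 (open squares) and array 1 (filled circles), by tumour (horizontal axis), and in 4 regions each of spleen, kidney and liver (diamonds). Tumour regions run from 7.01 in tumour 2206 to 10.19 in tumour 1001, and tumour 1001 has 1 region near 7.5 and 1 above 10 on each array.

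Block 2 held 6 members, 4 kept and 2 raised, with a mean correlation of 0.546 on array 2 and 0.568 on array 1. The raised ones were RTS0112902 and RTS0113771, which were also its most typical members. Its level had a minimum of 9.01 in tumour 204, a median of 10.00 and a maximum of 11.90 in tumour 404, against 9.77 ± 0.10 in spleen. Its level moved with the floor over the 24 tumours (r = -0.73, Spearman rho = -0.75, and r = -0.79 without the 2 tumours farthest from the median floor) and with the log2 total (r = 0.50, rho = 0.50, and r = 0.34 without the 2 tumours farthest from the median total). Tumours with a lower floor thus had a higher block 2 level, and the part of the floor in this block was not tested. Without tumour 404 the mean correlation on array 2 was 0.406. The block was not formed with upper quartile scaling, with Spearman correlation, with the stop at 0.6 or on the levels of array 2. With library size alone no block held more than 1 of its 6 members.

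Block 3 held 5 kept members with the highest mean correlation, 0.704 on array 2 and 0.733 on array 1. Its level had a minimum of 7.39 in tumour 809, a median of 8.91 and a maximum of 10.11 in tumour 1002, against 7.08 ± 0.08 in kidney and 7.88 ± 0.08 in liver, and its 4 spleen regions lay between 9.40 and 9.58. The most typical members were RTS0113747 and RTS0112300. RTS0113747 had tumour levels from 7.17 over a median of 8.94 to 10.07, and spleen regions at 9.29, 9.43, 9.29 and 9.29. RTS0112300 had tumour levels from 7.24 over a median of 8.77 to 10.58, and spleen regions at 9.70, 9.98, 9.97 and 9.98. Tumours lay on both sides of spleen in both, and all 5 members stayed together under each alternative tried, with library size alone in a block of 21 that also held members of blocks 4 and 5. In tumour 2206 this block split by region, with 9.67 and 7.37 on array 2 and 7.79 and 9.77 on array 1, a difference of 2.3 on array 2 and of 1.98 on array 1. The region with the higher level had the lower total on both arrays, 17711 against 51933 on array 2 and 71312 against 248951 on array 1, and the part of depth was not tested. Its level correlated with the floor at r = -0.52 (rho = -0.44) and with the log2 total at r = 0.40 (rho = 0.35).

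Block 4 held 5 members, 4 kept and 1 lost, with a mean correlation of 0.595 on array 2 and 0.611 on array 1. Tumour 601 stood out at 10.93, where the minimum was 7.83 in tumour 204 and the median 8.72, against 9.72 ± 0.06 in spleen. Without tumour 601 the mean correlation on array 2 was 0.479. The block was not formed with the stop at 0.6, and with Spearman correlation no block held more than 1 of its 5 members. RTS0113172 and RTS0112338, its most typical members, were both highest in tumour 601, at 10.54 and 11.31. Their medians over tumours were 8.54 and 8.75. RTS0113172 read 8.96, 9.30, 9.06 and 9.36 in the spleen regions and RTS0112338 read 9.62, 9.65, 9.81 and 9.78, so tumour 601 exceeded every spleen region in both. Its level correlated over the 24 tumours with the log2 total at r = 0.01 (rho = 0.10) and with the floor at r = -0.17 (rho = -0.12).

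Block 5 held 5 members, 4 raised and 1 kept, with a mean correlation of 0.658 on array 2 and 0.684 on array 1. Its level had a minimum of 7.92 in tumour 901, a median of 9.34 and a maximum of 10.70 in tumour 701, against 8.86 ± 0.20 in spleen. RTS0112518 and RTS0113109 were its most typical members. RTS0113109, the kept one, had tumour levels from 6.85 in tumour 901 over a median of 8.46 to 9.58 in tumour 701, and spleen regions at 9.04, 9.40, 9.38 and 9.35. Its level correlated with the log2 total at r = 0.57 (rho = 0.50, and r = 0.50 without the 2 tumours farthest from the median total) and with the floor at r = -0.58 (rho = -0.48, and r = -0.41 without the 2 tumours farthest from the median floor). The block was not formed with upper quartile scaling. Of its 5 members 3 stayed in 1 block with library size alone and when array 2 was used to form the blocks. All 5 stayed together with Spearman correlation and with the stop at 0.4 or 0.6. The part of depth in block 5 was not tested.

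Levels of the blocks were also set against each other. On the levels of 24 tumours, block 1 and block 2 had r = -0.12 (Spearman rho = -0.21). Blocks 3, 4 and 5 shared more, with r = 0.53 between blocks 3 and 5 (rho = 0.47), 0.51 between blocks 3 and 4 (rho = 0.52) and 0.50 between blocks 4 and 5 (rho = 0.51). Block 1 and block 4 had r = 0.47 (rho = 0.43). The highest tumour was a different one in each block, 706, 404, 1002, 601 and 701 in the order of the blocks. With library size alone all 5 members of block 3, 4 of block 4 and 3 of block 5 fell into 1 block of 21. These points share libraries and scaling, so they are given without a test.

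At the edge of the rule, RTS0113026, the member nearest inside, had a spleen mean 1.01 above the higher of its kidney and liver means, and RTS0112971, the probe nearest outside, had 0.99. RTS0113026 averaged 9.54 in tumours, from 8.26 to 11.03, and 9.40 in spleen. RTS0112971 averaged 10.48 in tumours, from 8.67 to 11.40, and 9.96 in spleen. Both had a tumour mean above spleen. With a margin of 2 in place of 1 the rule would have kept 23 members.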

How the data were processed

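The authors deposited raw counts for each probe, made with the GeoMx NGS pipeline 2.3.4 per the file headers. Other steps of the authors are not given in the sources used here, and the no-template control was not used. Levels are log2 CPM from edgeR 4.0.16 in R 4.3.3 (TMM, prior count 2), averaged over regions per array, then over the 2 arrays per tumour. Tests used edgeR's quasi-likelihood fit to counts (filterByExpr, Benjamini-Hochberg, threshold 0.05): tumours against each tissue on sums per tumour and per tissue, tumours among each other on 68 regions with array as a covariate, and array 2 against array 1 on 24 tumours with the tumour number, which the labels give on both arrays, as a block. Alternatives were upper quartile scaling, library size alone, DESeq2 1.42.0, limma 3.58.1 with voom on single regions, other prior counts, single arrays and leaving out regions or tumours. Leaving out low-total regions or the highest tumour of a block, and rescaled block correlations, were chosen after seeing the data. Probes differ in how well they bind, so levels are compared within a probe. Because depth limits precision, the median count is given for the named probes near the floor. Named members are the 2 given as markers, the 2 lowest and 2 highest by tumour minus spleen, the 2 kept members nearest to spleen, those at the edge of the rule, the 2 widest and 2 narrowest ranges and the 2 most typical of each block. RTS0113468, RTS0111939, RTS0112100, RTS0113644, RTS0112149, RTS0113761, RTS0111893, RTS0112047 and RTS0112880 were named after their values were seen. The members and lists were chosen with earlier results of these data known. P-values against a tissue rest on the spread between these tumours and hold none between control regions or animals. Those among tumours rest on the spread between regions of a tumour. Those between arrays, with the tumour as a block, rest on how the array difference varied over tumours.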

Additional observations from a re-analysis of the deposited data

Results flagged for a closer look

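The 4 regions of each control tissue were searched for 1 region apart from the other 3 by more than Dixon's limit. The search covered the named members, the mean level of all members and the 5 block levels, 75 groups in all, and 7 groups met the limit, each for a named member. Chance gives about 1 in 20 groups. In spleen, region 2 was high for RTS0113026 at 9.55 and for RTS0113747 at 9.43. Spleen region 1 was low for RTS0112300 at 9.70 and for RTS0113109 at 9.04. In kidney, region 3 was high for RTS0112915 at 8.23 and low for RTS0113407 at 6.34. In liver, region 1 was low for RTS0113747 at 7.98. All values are log2 CPM, and the causes were not tested.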

How the results depend on the processing

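The following counts moved by over 1.5 times. Members lower than spleen (24) were 37 with library size alone, where 122 of all probes were, and 23 to 25 leaving out 1 tumour or tissue region. Members higher than spleen (0) were 4 with limma voom. Members higher than kidney (1) were 4 with upper quartile scaling, where 15 of all probes were. They were 0 with library size alone or array 1 alone, 15 with DESeq2, 30 with limma voom, and 1 to 2 leaving out 1 tumour or region. Members higher than liver (3) were 5 with upper quartile scaling, where 30 of all probes were. They were 0 with library size alone or array 1 alone, 18 with DESeq2, 28 with limma voom, and 1 to 5 leaving out 1 tumour or region. Members lower than liver (0) were 4 with upper quartile scaling, where 332 of all probes were, and 1 with limma voom, where 90 of all probes were. For the tissue comparisons, calls over all probes were not counted on array 1 alone or with 1 tumour or region left out. Members differing among tumours (96) were 58 on array 1 alone and 56 on array 2 alone, where fewer tumours entered. Members differing between arrays (13) were 8 with library size alone, where 95 of all probes were. They were 0 without the replicate block and 4 in tumours with 2 regions on each array. With library size alone 63 members were lost, 27 kept and 7 raised, and 72 were in blocks. A margin of 2 left 23 members. Of uncalled log2 fold changes over spleen, RTS0112185 (0.47) was -0.59 with library size alone, and RTS0113026 (0.26) was -0.73 with library size alone and -0.11 under upper quartile scaling. RTS0112915 (-0.01) was 0.060 with DESeq2, 0.0028 on array 1 alone and -0.059 to 0.030 leaving out 1 spleen region. The causes were not tested, and low counts near the floor limit what the lost members can show.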
